A study of Mus musculus with 2 samples.

Results

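Long noncoding RNAs are transcripts longer than small RNAs that are not translated into protein, and they include nuclear architectural RNAs such as Malat1, hosts of small nucleolar RNAs (snoRNAs) and microRNAs, imprinted antisense RNAs and the RNA parts of enzymes. Many lie beside or across a protein-coding gene and are transcribed from the same stretch of open chromatin. Here the set comprised every RefSeq noncoding transcript of at least 200 bases on chromosomes 1 to 19 of the mouse, which was 2596 of 30485 transcripts in the deposited table. A further 720 autosomal noncoding transcripts were shorter, and 201 noncoding transcripts lay on X, Y or unplaced sequence. At the limit, Defa-ps13 (204 bases, listed at 0 in both libraries) and Snord17 (221 bases) were just inside, and Snhg9 (183 bases, 6.03 FPKM in the pre-pro-B library and 2.80 in the pro-B library) and Snora74a (198 bases, 608 and 509 FPKM) just outside.

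Transcript levels had been measured in 1 library per cell type, so no value has a replicate and no test between the cell types was possible. The pre-pro-B library came from Ebf1 -/- cells of female embryonic liver, grown on OP-9 stromal cells (a mouse bone marrow stromal line) with IL-7 at 5 ng/mL, SCF at 10 ng/mL and Flt3l at 10 ng/mL. The pro-B library came from Rag2 -/- cells of male adult bone marrow, grown on OP-9 cells with IL-7 at 5 ng/mL. Both were C57BL/6. Cell stage, genotype, sex, age, tissue and cytokines therefore cannot be told apart in any difference below. The libraries were stranded, made from total RNA depleted of ribosomal RNA and of RNAs under 200 bases, and read to about 90 M reads of 97 bases each. Levels are FPKM, fragments normalised for transcript length and for the number of fragments in the library, which allows transcripts of different length to be compared, and "interval" below is the 95% interval that Cuffdiff gave for that library. This interval comes from a model of the 2 libraries, not from replicates. FPKM lay outside its own interval for 38 of 1174 members above 0 in the pre-pro-B library and for 45 of 1064 in the pro-B library. In this bulk RNA, fewer cells of a type and less RNA per cell cannot be told apart.

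Lineage markers followed the labels. All 9 B lineage genes were at least 2-fold higher in the pro-B library (summed FPKM 8.84 against 2940), and 5 of 6 progenitor genes were lower (999 against 6.28). Ebf1, the gene targeted in the pre-pro-B line, was still at 64.0 FPKM there and at 273 in the pro-B library, and Rag2 was at 34.5 in the pre-pro-B library and at 22.9 in the Rag2 -/- library. The sources used here do not say which part of either gene was removed, so these levels do not check the labels. Myeloid markers summed to 883 FPKM in the pre-pro-B library and 9.14 in the pro-B library, mainly from Tyrobp (463 and 1.28) and Fcer1g (395 and 1.46), with Elane, Ctsg and Lyz1 at 0 in both. T lineage markers summed to 77.3 and 3.13, with Cd3g at 36.8 and 0.0351 and Cd3e at 0.239 and 0.102. OP-9 stromal markers summed to 21.5 and 21.6, with Dcn and Postn at 0 in both, and 4 of 14 were 2-fold higher in the pro-B library while Pdgfrb was lower. Erythroid markers summed to 0.449 and 0.232, with Hba-a1 at 0. The part of these cells in the differences below was not tested.

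A symbol was found by accession for 2460 members and by position on mm9 for 84, and 52 stayed unnamed. By RefSeq gene class, 1844 members were lncRNAs, 308 were noncoding variants of protein-coding genes, 296 were transcribed pseudogenes, 12 were structured RNAs and 136 had no class. Their median length was 1462 bases, against 2515 for the 25600 autosomal coding transcripts. Of the members, 1157 (44.6%) lay alone at their locus, 1098 (42.3%) shared it with a coding transcript and 341 (13.1%) shared it with noncoding transcripts only. Loci joined overlapping transcripts of both strands, and reads at shared loci were divided among transcripts by the authors' software. Of members above 0 in the pre-pro-B library, the value was worth less than 1 fragment at the stated depth for 0 of 385 that lay alone and for 38 of 648 that lay with a coding transcript.

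The RNAs of ribonuclease P, the enzyme that trims the leader of transfer RNA precursors, carried both the highest level of any member and the largest difference between the libraries. Their sequences are shown because the copies are near-identical and the values depend on telling them apart. Both are read from mm9 on the minus strand, Rpph1 from base 2 to base 259 of its 325 bases (chromosome 14, 51427188 to 51427445) and Rprl3 in full (chromosome 8, 3803125 to 3803361). Capitals mark bases that differ between the copies or are missing from Rprl3.
Rpph1: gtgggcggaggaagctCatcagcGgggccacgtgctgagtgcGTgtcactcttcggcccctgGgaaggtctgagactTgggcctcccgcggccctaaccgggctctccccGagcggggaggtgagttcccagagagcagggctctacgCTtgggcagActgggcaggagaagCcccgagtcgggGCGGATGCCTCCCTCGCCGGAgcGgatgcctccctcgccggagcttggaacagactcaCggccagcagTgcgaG
Rprl3: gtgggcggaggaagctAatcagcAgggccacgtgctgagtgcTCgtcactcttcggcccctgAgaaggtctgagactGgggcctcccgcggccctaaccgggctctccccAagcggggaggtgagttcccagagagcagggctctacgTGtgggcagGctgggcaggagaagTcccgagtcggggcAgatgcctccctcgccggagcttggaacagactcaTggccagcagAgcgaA
In this alignment 222 bases were identical and 15 differed (93.7% identity), and 21 bases of Rpph1 were missing from Rprl3. The longest identical run was 37 bases, and no stretch of 97 bases, the read length, occurred in both. This counts exact matches of full length only. Reads were trimmed and could keep up to 20 placements, so how they were divided between the copies was not tested.

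Rpph1 (NR_002142) was at 5393 FPKM in the pre-pro-B library (interval 887 to 9872) and at 1189 in the pro-B library (interval 249 to 2122), a log2 change of -2.18. Rprl3 (NR_024198), a dispersed copy alone at its locus, was at 2.38 FPKM in the pre-pro-B library (interval 0 to 4.67) and at 849 in the pro-B library (interval 93.7 to 990), a log2 change of 7.97. Log2 changes here and below are of FPKM plus 1, pro-B over pre-pro-B. The intervals of Rprl3 did not overlap and those of Rpph1 did. The other copies, Rprl1 (91.2% identity to Rpph1) and Rprl2 (93.3%), were listed at 0 in both libraries and at 0 and 2.60 FPKM. Rmrp, the RNA of the related ribonuclease MRP, was at 3025 and 2216 FPKM. The 11 measured proteins of these enzymes had a median log2 change of -0.19, and 1 of them, Rpp30, was 2-fold higher in the pro-B library (22.7 against 47.0 FPKM).

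Fewer long noncoding than coding transcripts were detected. Above 0 FPKM were 1174 of 2576 members with a successful estimate in both libraries in the pre-pro-B library (45.6%, exact binomial 95% interval 43.6 to 47.5%) and 1064 in the pro-B library (41.3%, interval 39.4 to 43.2%), against 66.1% and 62.3% of 25447 autosomal coding transcripts. Such intervals cover counting error only, and the same share of coding transcripts lay outside them in both libraries. At 1 FPKM or more were 22.6% and 21.2% of members, against 45.5% and 41.8% of coding transcripts. Members alone at their locus share it with no other transcript, though reads of some may also match a gene elsewhere. They were above 0 in 33.3% and 28.7% of cases, against 61.8% and 58.7% of coding transcripts alone at theirs. Across classes the share above 0 in the pre-pro-B library was 38.5% of lncRNAs (interval 36.3 to 40.8%), 48.0% of transcribed pseudogenes (42.1 to 54.1%), 68.2% of members with no class (59.5 to 76.0%), 74.6% of variants of coding genes (69.3 to 79.4%) and 83.3% of the 12 structured RNAs (51.6 to 97.9%). In the pro-B library it was 34.1%, 45.6%, 59.1%, 71.3% and 91.7% in the same order. Both libraries gave a value above 0 for 886 members and 0 for 1224. Of the 466 above 0 in a single library, 412 stayed under 1 FPKM there.

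Detected noncoding transcripts were also less abundant. Among transcripts above 0, the median was 0.992 FPKM for members and 4.89 for coding transcripts in the pre-pro-B library, and 1.07 and 4.62 in the pro-B library. The upper quartile of detected members, 4.21 and 4.42 FPKM, lay below the coding median in both libraries. lncRNAs had the lowest medians (0.621 and 0.676 FPKM), transcribed pseudogenes stood at 1.03 and 0.949, and variants of coding genes at 1.96 and 1.91. By FPKM times length, members held 3.31% of all fragments in the pre-pro-B library and 3.56% in the pro-B library, and their 10 largest contributors held 63.0% and 67.5% of that.

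**Figure D1:**
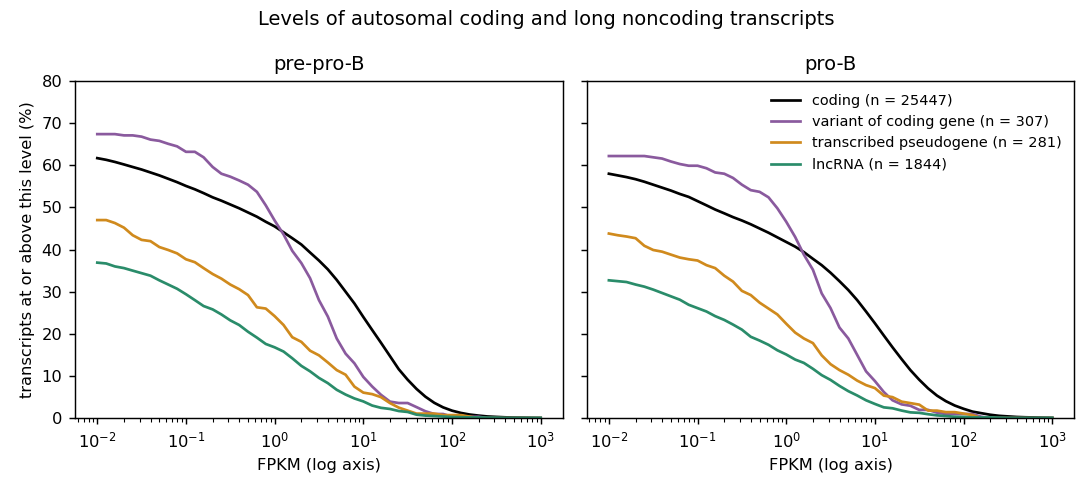
Share of transcripts (%, y axis) at or above each FPKM (x axis, log scale) for autosomal coding transcripts (n = 25447) and for 3 classes of long noncoding transcript, with the pre-pro-B library on the left and the pro-B library on the right. At 1 FPKM the curve of lncRNAs stands at 16.8% against 45.5% of coding transcripts in the pre-pro-B library and at 15.1% against 41.8% in the pro-B library. At 1000 FPKM, which Malat1 alone of the lncRNAs reached, it stands at 0.0542% against 0.0354% in the pre-pro-B library. In the pro-B library it stands there at 0.0542% against 0.0629%.

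The most abundant members after Rpph1 and Rmrp included a nuclear lncRNA, structured RNAs, lncRNAs without a role given here and variants of coding genes, and those described here were under 2-fold apart between the libraries except a Gnas transcript. Malat1, a nuclear speckle RNA (NR_002847, chromosome 19, 5795690 to 5802671), was at 1133 FPKM in the pre-pro-B library (interval 0.181 to 3259) and 1485 in the pro-B library (interval 1317 to 1331, which does not hold the value itself). NR_046233, a transcript of 5833 bases alone at chromosome 17, 39979942 to 39985774, was at 1027 and 1478 FPKM. It matched no symbol and had no class here, and which RNA it is was not determined. The members with no class, this one among them, held 0.825% and 1.12% of all fragments. Scarna13 and Scarna6, guides for the modification of spliceosomal RNAs in Cajal bodies, were at 760 and 679 FPKM and at 308 and 216 FPKM. The snoRNA Snord17 was at 194 and 167 FPKM. Of the other lncRNAs, 2410006H16Rik was at 325 and 259 FPKM and AI662270 at 227 and 203. A noncoding variant of Clk1, a kinase of splicing factors (NR_027854), was at 248 and 152 FPKM and exceeded the coding transcript of the gene, at 45.0 and 37.8. A noncoding Gnas transcript (NR_003258) was called higher, at 83.8 and 188 FPKM with intervals that overlapped, beside coding Gnas transcripts that summed to 105 and 173.

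Over all 30127 transcripts with a successful estimate in both libraries, 6.44% were at least 2-fold higher in the pro-B library on the scale of FPKM plus 1 and 9.71% were at least 2-fold lower. Of 2576 members, 105 (4.08%) were higher and 141 (5.47%) lower, both below these shares. With a mean of at least 1 FPKM over the libraries, 91 of 601 members were higher (15.1%, against 13.8% of all such transcripts) and 113 were lower (18.8% against 19.8%), shares near those of all transcripts. The intervals of the libraries lay apart for 0.617% of all transcripts with the higher value in the pro-B library and for 1.32% with the lower value there, and for 5 (0.194%) and 10 (0.388%) of the members. An interval of 0 to 0 in 1 library passes this rule whenever the lower limit of the other is above 0. Of the members called higher, 56 were lncRNAs, 25 variants of coding genes, 13 transcribed pseudogenes and 2 structured RNAs, and of those called lower, 87, 29, 13 and 1. Values were modest: 29 of the 105 reached 10 FPKM in the pro-B library and 37 of the 141 in the pre-pro-B library. In the other library, 20 of the 105 and 34 of the 141 were listed at 0.

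**Figure D2:**
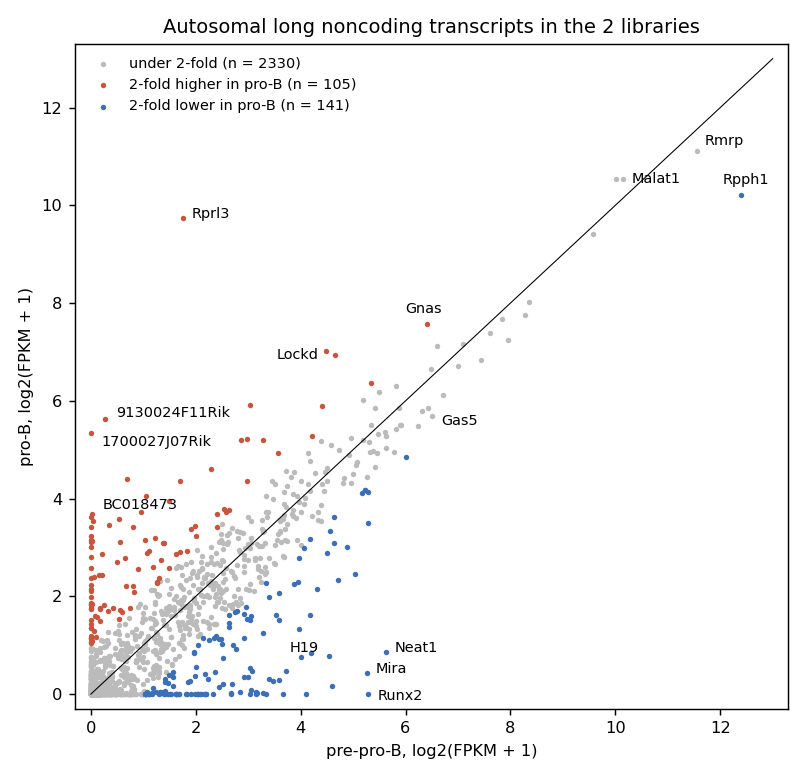
Level of each of 2576 long noncoding transcripts in pre-pro-B (x axis) and pro-B cells (y axis), both as log2(FPKM + 1), with the line of equality. The 105 transcripts called higher and 141 called lower in the pro-B library are coloured, and Rprl3 (2.38 and 849 FPKM) and Rpph1 (5393 and 1189 FPKM) lie on opposite sides of the line.

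Among RNAs lower in the pro-B library was Neat1, while none of the paraspeckle proteins measured was 2-fold lower. Neat1, an RNA of nuclear bodies called paraspeckles (NR_003513, chromosome 19, 5842302 to 5845478), was at 48.4 FPKM in the pre-pro-B library (interval 8.61 to 88.1) and 0.829 in the pro-B library (interval 0 to 1.99), a 58.3-fold lower level with intervals apart. Its only entry is 3177 bases long, so longer and shorter forms of the RNA were not told apart. Of 14 paraspeckle proteins, 0 were 2-fold changed in either direction and the median log2 change was 0.48. Among them, Dazap1 was at 34.4 and 57.2 FPKM and Cpsf6 at 92.2 and 151 FPKM. Malat1, which lies on the same chromosome, was not lower in the pro-B library. Of the 15 transcripts of nuclear lncRNAs tested, 1 was lower (Neat1), 1 higher (Pvt1, at 1.52 and 5.70 FPKM) and 13 under 2-fold, where 6.44% of all transcripts were higher and 9.71% lower. The median log2 change was 0.00, as over all transcripts, but both medians are set by transcripts at or near 0 FPKM and say little. Of the 15, 8 reached 1 FPKM in a library, and the change was below 0 for 8 and above 0 for 4. Norad, which binds Pumilio proteins, was at 58.3 and 44.5 FPKM, Tug1 at 104 and 68.3 (NR_002321), and Trp53cor1, a p53-induced RNA, at 11.2 and 9.06.

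Mira (NR_045199, chromosome 6, 52164490 to 52165287), an lncRNA of the Hoxa cluster, was at 37.4 FPKM in the pre-pro-B library (interval 3.12 to 69.1) and 0.350 in the pro-B library (interval 0 to 0.693), with intervals apart. The coding Hoxa genes beside it were lower too: Hoxa9 was at 39.9 and 0.0655 FPKM, Hoxa7 at 16.6 and 0.317, and Hoxa5 at 12.1 and 0.253. Mira could not be separated from Hoxa7 by sequence, since every 32-base stretch of it occurs in an annotated Hoxa7 transcript, which Gencode places at chromosome 6, 52164490 to 52170392. The 4 transcripts of the Hox cluster list itself, Hotair, Hoxa11os, Hoxaas3 and Hoxd3os1, stayed at or under 0.120 FPKM in both libraries.

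D5Ertd605e (NR_033625, chromosome 5, 148230196 to 148234620), an lncRNA 7535 bases from the locus of Pan3, was at 23.3 FPKM (interval 2.83 to 43.7) and 0.117 (interval 0 to 0.298), and Pan3, a subunit of a poly(A) nuclease, at 357 and 76.1. H19, an imprinted RNA of embryonic tissues (NR_001592, named by its position on chromosome 7), was at 22.4 FPKM (interval 2.13 to 43.0) and 0.721 (interval 0 to 2.05). For 2610035D17Rik the levels were 11.04 and 0.227 FPKM, and for Gm5547 they were 11.7 and 0. The intervals of D5Ertd605e, H19 and Gm5547 lay apart and those of 2610035D17Rik did not. Intervals also lay apart for 4 members of lower level, 1810006J02Rik (1.78 and 0 FPKM), Gm4890 (NR_045822, 3.58 and 0.00208), NR_033628 (3.51 and 0) and an Adamts10 transcript (NR_037708, 7.19 and 0.000135). For Gm5547 and these 4 the pro-B interval was 0 to 0, so any pre-pro-B lower limit above 0 set them apart. That limit was 0.0181 FPKM for Gm4890 and 0.00656 for the Adamts10 transcript, and the pro-B values of both lay outside their interval.

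Noncoding variants of coding genes made up several of the other large falls. A Runx2 variant (NR_073392, chromosome 17) was at 38.1 FPKM (interval 4.84 to 71.3) and 8.22e-05 (interval 0 to 0). The coding transcripts of Runx2, a transcription factor of bone and early blood cells, summed to 22.3 and 0.307 FPKM, so the whole gene was lower. In contrast, a Zc3h7a variant (NR_027502) was at 17.3 and 0.802 FPKM and an Alg11 variant (NR_040650) at 12.2 and 0.396, while their coding transcripts were at 32.4 and 40.8 FPKM and at 9.76 and 12.6. The pseudogene Gm12191 was at 16.2 and 0 FPKM, F630111L10Rik at 8.71 and 0.0228, and a Zfp672 variant (NR_046280) at 9.07 and 0, a call that was lost when the noncoding transcripts of the gene were summed (log2 change -0.77). All 3 share their locus with a coding transcript.

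The 12 members that rose most were, apart from Rprl3, lncRNAs, variants of coding genes and transcripts with no class, all under 1 FPKM in the pre-pro-B library. 9130024F11Rik (NR_024326, chromosome 1, 57028313 to 57032040) was at 0.209 FPKM in the pre-pro-B library (interval 0 to 0.746) and 48.8 in the pro-B library (interval 1.38 to 105). 1700027J07Rik (NR_040581, chromosome 10, 43465964 to 43485642) was listed at 0 in the pre-pro-B library and at 39.3 FPKM in the pro-B library (interval 1.57 to 93.4). BC018473 (NR_003364, chromosome 11, 116613481 to 116619197) was at 0.0107 and 11.8 FPKM (interval 0.218 to 24.96), and NR_027344, at the locus of Trub2, was at 0.000692 and 11.2 FPKM (interval 0.280 to 24.6). For these 4 the pro-B interval lay wholly above that of pre-pro-B cells. The pre-pro-B interval of 1700027J07Rik and NR_027344 was 0 to 0, so any pro-B lower limit above 0 set them apart. 5730488B01Rik was at 0.0227 and 10.7 FPKM, with a pro-B interval that reached 0, and shares its locus with Pax5, a B lineage transcription factor gene at 1.13 and 239 FPKM. Among transcripts of genes with a coding transcript, 4930523C07Rik (NR_028111) was at 0.605 and 20.2 FPKM and its coding transcript at 2.09 and 57.4, and a Ralgps2 transcript (NR_027640) was at 0 and 7.65 FPKM and the coding transcripts at 0.300 and 166. Elsewhere the coding transcripts were lower in the pro-B library. An Arfrp1 variant (NR_028585) was at 0 and 8.38 FPKM and its coding transcripts at 8.43 and 2.08. An Ankrd10 transcript (NR_030779) was at 0.269 and 9.99 FPKM and the coding ones at 50.1 and 28.6. A Yars2 variant (NR_038046) rose while its coding transcript was at 7.49 and 0.000717 FPKM. Coding Trub2, at the locus of NR_027344, was at 8.57 and 3.21 FPKM.

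Lockd, an lncRNA downstream of the cell cycle inhibitor gene Cdkn1b, was higher in both of its transcripts. NR_037955 was at 24.1 FPKM in the pre-pro-B library (interval 0.256 to 56.5) and 121 in the pro-B library (interval 4.63 to 244), and NR_037956 at 0 and 9.68. Cdkn1b, whose locus lies 3566 bases away, was at 33.7 and 112 FPKM. These 2 were the only transcripts called among 11 of the hematopoietic and immune list, where 6.44% of all transcripts were higher and 9.71% lower, and the list's median log2 change was -0.07. Dleu2 was at 8.81 and 9.17 FPKM, Mirt1 at 1.64 and 1.67, and Morrbid transcripts at or under 0.621 FPKM in both.

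**Figure D3:**
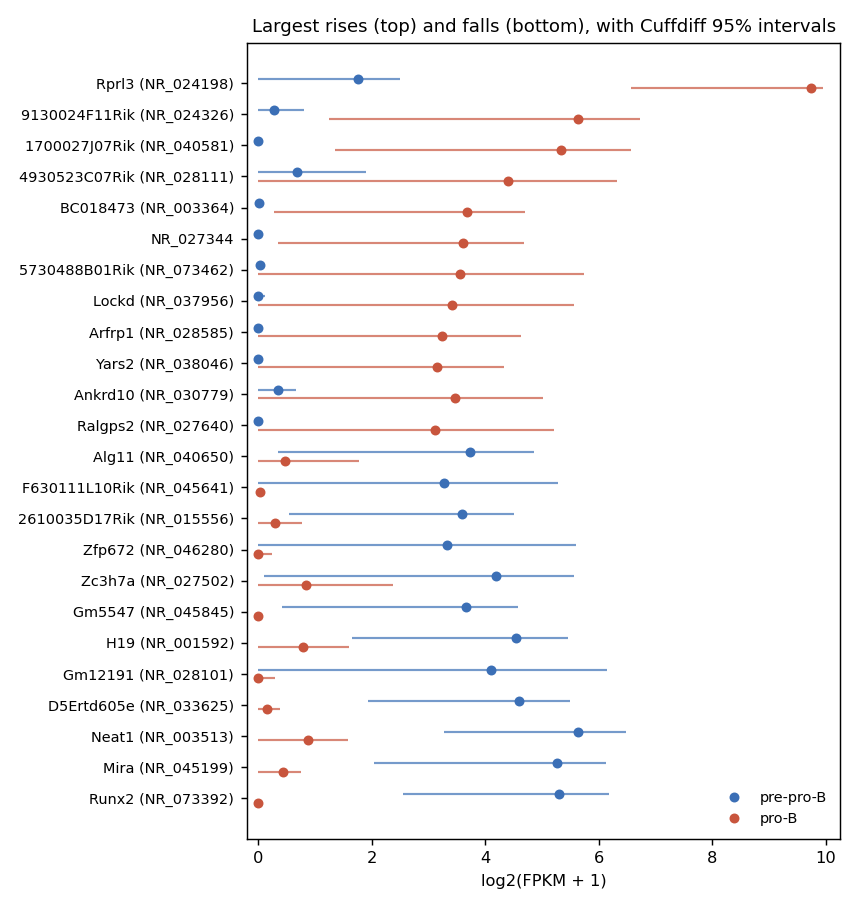
Levels, as log2(FPKM + 1), of the 12 long noncoding transcripts that rose most and the 12 that fell most from pre-pro-B to pro-B cells, as points with Cuffdiff's 95% interval as a line for each library. Only some intervals lie apart, among them those of Rprl3 (0 to 4.67 and 93.7 to 990 FPKM) and Neat1 (8.61 to 88.1 and 0 to 1.99 FPKM).

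snoRNA host genes carry snoRNAs in their introns, and their spliced RNAs are commonly short-lived. Of 22 host transcripts of 18 genes, 5 were 2-fold lower in the pro-B library, 0 were 2-fold higher and 17 were between, where 9.71% of all transcripts were lower and 6.44% higher. Of the 22, 20 reached 1 FPKM in a library. Among all transcripts with a mean of at least 1 FPKM over the libraries, 19.8% were lower and 13.8% higher. The change was below 0 for 17 hosts and above 0 for 5, against 11431 and 8883 of all 30127 transcripts. Their median log2 change was -0.62, against 0.00 for all transcripts and for all members. The medians of 0.00 include transcripts at 0 in both libraries. Over those above 0 in a library, the median was -0.0286 for all transcripts and -0.0378 for members. Medians over transcripts matched to the hosts in level were not computed. The intervals of every host pair overlapped. Snhg1 was at 127 FPKM in the pre-pro-B library (interval 17.3 to 237) and 104 in the pro-B library (interval 13.5 to 189). Gas5, a growth arrest RNA named by its position on chromosome 1, was at 90.2 FPKM (interval 10.5 to 170) and 50.7 (interval 11.8 to 89.7). The lower calls were Epb41l4aos (NR_038151, 28.4 and 7.09 FPKM), Snhg20 (23.9 and 11.4), Snhg4 (35.0 and 16.4), Snhg10 (7.25 and 2.05) and a Snhg16 transcript (NR_027820, 3.60 and 0). Snhg20 and Snhg4 were just past the limit, and without them, under the scaling by the median ratio of coding transcripts, 3 calls were left. Above 0 were the other Epb41l4aos transcript (NR_038152, 0.922 and 2.60 FPKM, a log2 change of 0.90), Snhg18 (0.119 and 0.374), Snhg8 (89.0 and 99.2), Snhg5 (39.4 and 44.2) and Snhg15 (18.4 and 21.9). None of the 10 snoRNP proteins measured was 2-fold changed, with a median log2 change of 0.13. The share of these RNAs that is removed by nonsense-mediated decay was not measured. Of 14 factors of that pathway measured, 1 was 2-fold higher (Upf3b, 12.9 and 27.9 FPKM) and 0 lower.

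**Figure D4:**
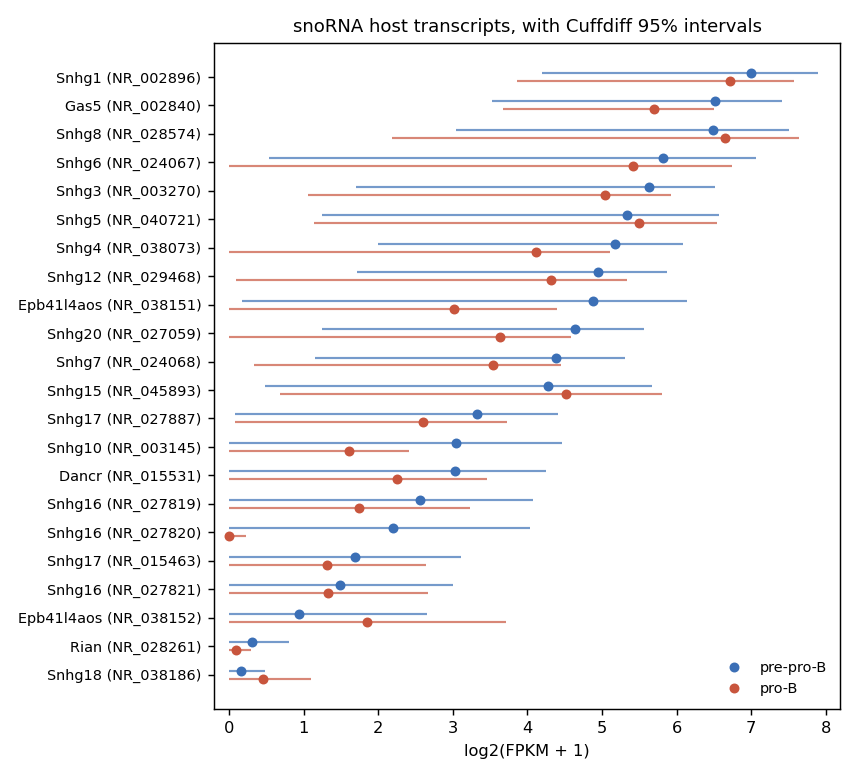
Levels, as log2(FPKM + 1), of 22 snoRNA host transcripts in each of the libraries, ordered by the pre-pro-B level, with Cuffdiff's 95% interval as a line. The pro-B point lies to the left of the pre-pro-B point for 17 of 22 transcripts, and the intervals of each pair overlap.

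By position on GRCm38, 26 genes of the set held 50 microRNA genes of the RefSeq table on the same strand. Of these hosts, 11 reached 1 FPKM in a library, 5 reached 10 and 9 were at 0 in both. The mature sequences that follow belong to hosts that reached 1 FPKM and are shown to tie each host to a microRNA of that table. The table may not hold every microRNA of a host, so neither these sequences nor the count of 50 need be complete. They are from RefSeq with the build GRCm38, 1 arm for each, with the seed (bases 2 to 8) in capitals.
miR-92a-3p (host Mir17hg): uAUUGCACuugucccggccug
miR-16-5p (host Dleu2): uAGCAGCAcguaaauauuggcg
miR-22-3p (host Mir22hg): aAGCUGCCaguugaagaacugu
miR-29b-3p (host A330023F24Rik): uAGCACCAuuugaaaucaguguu
miR-29c-3p (host A330023F24Rik): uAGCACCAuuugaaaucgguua
miR-101a-3p (host E130102H24Rik): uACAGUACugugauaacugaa
miR-29b-3p and miR-29c-3p share their seed, and the others differ. Mir17hg (NR_029382, chromosome 14 of mm9, 115443527 to 115445950) was at 78.6 FPKM in the pre-pro-B library (interval 5.46 to 153) and 54.5 in the pro-B library (interval 2.53 to 108). Dleu2 was at 8.81 and 9.17 FPKM, and E130102H24Rik at 6.17 and 8.94. A330023F24Rik was at 1.79 and 1.03 FPKM and Mir22hg at 1.02 and 0.833. None of these hosts was 2-fold changed. Over all 26 hosts, 0 were higher and 4 lower, namely 2610307P16Rik (24.5 and 4.46 FPKM over 2 transcripts), 5430402O13Rik (1.36 and 0.0347 FPKM), Snhg10 and Snhg20, where 6.44% of all transcripts were higher and 9.71% lower. By transcript, the separate list of known microRNA hosts held 22, of which 1 was higher (Pvt1) and 1 lower (H19). RNAs under 200 bases were depleted, so the microRNAs themselves were not measured.

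Among imprinted noncoding RNAs, transcripts of Airn, Gnasas1 and H19 were called lower in the pro-B library, with intervals apart for H19 alone, and Kcnq1ot1 and Peg13 were under 2-fold. Airn, the antisense RNA of the Igf2r region on chromosome 17, was lower in 2 of its 4 transcripts, at 6.56 FPKM (interval 0 to 31.9) and 0.278 (interval 0 to 0.538) for NR_002853 and at 5.42 and 0.150 for NR_027772. The others were under 2-fold, at 1.74 and 0.605 FPKM (NR_027773) and at 1.30 and 0.356 (NR_027784). Igf2r, which shares the locus, was at 71.9 and 9.57 FPKM. Gnasas1, antisense at the Gnas locus, was at 7.96 FPKM (interval 0 to 41.02) and 0.0192 (interval 0 to 0.0176), while coding Gnas was at 105 and 173. H19 is given above. Kcnq1ot1, the antisense RNA of Kcnq1 and the longest member at 83437 bases, was at 7.19 FPKM (interval 0.250 to 14.3) and 6.96 (interval 0.280 to 13.8), and Peg13 was at 11.6 and 11.04. Of 18 imprinted transcripts tested, 4 were lower and 0 higher, where 9.71% of all transcripts were lower and 6.44% higher, and the median log2 change was -0.05 against 0.00 for all transcripts. Of the 18, 8 reached 1 FPKM in a library, so transcripts of low level weigh on this median. The transcripts of Meg3, Rian and Mirg, of the imprinted cluster on chromosome 12, stayed at or under 0.374 FPKM.

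The RNA of telomerase, Terc (chromosome 3, 96218360 to 96218756), was at 20.01 FPKM (interval 0.597 to 38.7) and 13.6 (interval 0.299 to 26.5). Of 7 telomerase proteins, 1 was 2-fold changed, the reverse transcriptase Tert at 0.0656 and 1.53 FPKM. None of the 7 proteins of the 7SK particle, which holds back transcription elongation, was 2-fold changed.

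Changed noncoding transcripts were compared with the coding gene of the nearest other locus, since divergent transcripts often share a promoter region with it. Strand was not used to choose the pairs, so divergent and downstream transcripts were not told apart. These pairs were examined after their values were seen. Left out were variants of coding genes and members that overlap the locus of the nearest coding gene, which left 46 of the 105 members called higher and 66 of the 141 called lower, and 3 of the 66 (transcripts of Atp10d, Mx1 and Mx2) share their own locus with a coding transcript. For members called higher in the pro-B library, 17 of 46 nearest genes (37.0%) were also called higher and 2 lower. For members called lower, 20 of 66 (30.3%) were called lower and 3 higher. Over 19223 loci with a coding gene, 6.41% were called higher and 10.0% lower. These loci had no filter on level. Among all transcripts with a mean of at least 1 FPKM, 13.8% were called higher and 19.8% lower. Shares for coding genes matched to the neighbours in level were not computed. Within 50 kb the counts were 16 of 42 and 17 of 54. The pairs share their libraries, and some members have more than 1 transcript in a pair. A430035B10Rik (chromosome 6, 8457059 to 8459161) was at 0.165 and 6.28 FPKM, and Glcci1, 434 bases away, at 0.498 and 104. Fendrr (chromosome 8, 123578782 to 123606932) was at 5.35 and 0.0184 FPKM, and the transcription factor gene Foxf1, 1353 bases away, at 46.1 and 0.263. Foxd2os was at 0.420 and 5.51 FPKM, and Foxd2, 390 bases away, at 0.0934 and 2.70. Pairs also went opposite ways: Pvt1 was higher in the pro-B library, and Myc, 47625 bases away, was at 19 and 5.88 FPKM.

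**Figure D5:**
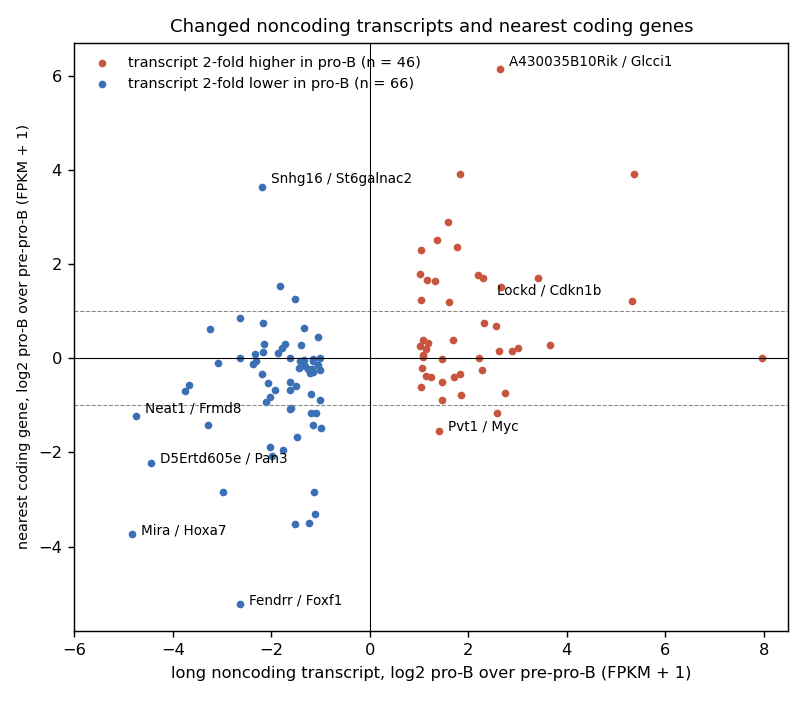
Log2 change (pro-B over pre-pro-B, FPKM + 1) of long noncoding transcripts called higher (n = 46 of 105) or lower (n = 66 of 141) in the pro-B library (x axis) and of the coding gene of the nearest other locus (y axis), without members that overlap that locus or are variants of coding genes, and with dashed lines at the 2-fold limits. Of the higher transcripts, 17 have a gene above the upper line and 2 below the lower one, and of the lower transcripts 20 have a gene below the lower line and 3 above the upper one.

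Transcripts named as antisense or opposite-strand partners of a coding gene (140 transcripts of 122 genes) were mostly silent, with 28 reaching 1 FPKM in a library. Of the 140, 2 were called higher and 9 lower, both below the 6.44% and 9.71% of all transcripts. In the same direction as their partner were Foxd2os with Foxd2 and Arhgap27os3 (6.17 and 0.0254 FPKM) with Arhgap27 (14 and 0.137 FPKM). For the other 9 called transcripts the partner was under 2-fold, as for Med9os (0.853 and 4.93 FPKM) with Med9 (7.52 and 10.1 FPKM). Oip5os1 (NR_015473) was at 43.8 and 71.6 FPKM, while Oip5, a centromere protein gene, was at 7.45 and 59.0. The authors' quantification names no strand setting beyond the alignment, so reads of such pairs may have been shared.

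Transcribed pseudogenes are copies of coding genes, and their values depend on how matching reads were assigned. Of 79 pseudogene members that are unspliced and alone at their locus, 71 share at least one 32-base stretch with coding transcripts of another gene, against 27 of 59 lncRNAs of that kind, and 13 share at least 50% of their stretches, against 1 lncRNA (Mira). Ndufs5-ps shared 84.6% of its stretches with Ndufs5, a subunit gene of respiratory complex I. It was at 39.4 FPKM in the pre-pro-B library and 81.6 in the pro-B library, while coding Ndufs5 was listed at 0 and at 4.91e-05. Gm5424 shared 78.4% with Ass1, an enzyme of arginine synthesis, and was at 25.3 and 4.06 FPKM, with Ass1 at 2.20 and 0.313. Tyms-ps shared 28.5% with Tyms, the thymidylate synthase gene, and was at 0.951 and 12.2 FPKM, with Tyms at 7.67 and 58.6. The most abundant of these, Gm6548, was at 173 and 113 FPKM and shared 26.3% of its stretches with Eef1a1, a translation elongation factor gene at 1744 and 1283 FPKM.

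The binding motif of EBF, the factor whose gene was disrupted in the pre-pro-B line, was looked for in the RefSeq promoters (build GRCm38) of the members' genes, from 250 bases before to 50 after the start. The letters searched were TCCCNNGGGA, which read the same on both strands. They occurred in 287 of 27025 genes with a promoter (1.06%), in 14 of 1286 genes of members (1.09%), in 0 of 45 genes with a member called higher and in 4 of 69 with a member called lower (5.80%). The 4 were 2010320M18Rik, 2310040G24Rik, A230056P14Rik and Gm10640.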

How the data were processed

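Total RNA of the 2 cell types was sequenced in 1 library each. The authors trimmed the reads, aligned them to mm9 with TopHat (version 1.5 in the submitters' processing notes) with at most 20 placements kept for a read, and used Cuffdiff 2.1.1 to give each RefSeq transcript an FPKM, a 95% interval and a status, with multi-read and bias correction and a minimum alignment count of 10. The deposited FPKM table was used. A second deposited table holds the authors' own fold changes, p-values and q-values and was not used. The number of fragments behind a value is not given and was approximated from length and the stated depth.

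Members, lists and rules were chosen with earlier results of these data known. Symbols came from RefSeq (GRCm38.p6) by accession, or from a Gencode gene that matched at least 95% of the position on mm9. Transcripts without status OK in both libraries (20 members) were left out of shares and calls. Calls were at least 2-fold on FPKM plus a pseudocount of 1, with no filter. Named were the members of the noncoding lists, the 10 most abundant per library, the 12 largest rises and falls, up to 15 each way with intervals apart, antisense partners, and examples from protein lists. Others named, such as the pairs with a coding neighbour and the pseudogenes, were chosen after their values were seen. Scripts ran in Python 3.11.15 (pandas 2.3.3, numpy 2.4.6) with exact binomial intervals from scipy 1.17.1 and plots from matplotlib 3.10.9, and the call rule was tested on simulated data. Alternatives were other pseudocounts, a level filter, other scalings, sums per gene, subsets of members and a 4-fold limit. Results for some genes are not reported here.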

Additional observations from a re-analysis of the deposited data

How the results depend on the processing

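No paired analysis was possible because each cell type has 1 library. With 1 library each, no value has a replicate error, and the depth limits low values: at the stated depth, 42.6% of members in the pre-pro-B library and 38.5% in the pro-B library held at least 3 fragments, against 45.6% and 41.3% above 0. The share detected was 35.9% and 32.9% at 0.1 FPKM, 22.6% and 21.2% at 1 FPKM, 40.8% and 36.6% without genes that also have coding transcripts, and 33.3% and 28.7% for members alone at their locus, an alternative chosen after seeing the data. Coding transcripts held the larger share at each level. The counts of members higher and lower in the pro-B library, 105 and 141, became 243 and 350 with a pseudocount of 0.1 (9.43% and 13.6%, against 10.8% and 15.8% of all transcripts). With none, over members above 0 in both, they were 189 and 236. These shares, 21.3% and 26.6%, were above the 19.4% and 24.3% of all such transcripts. As TPM the counts were 153 and 250 (5.94% and 9.7%, against 7.74% and 13.5%). At 4-fold they were 40 and 48 (1.55% and 1.86%, against 2.22% and 3.81%). For members alone at their locus they were 33 and 40 (2.85% and 3.46%, against 5.59% and 8.46% of all transcripts alone at theirs). The counts were 73 to 110 and 106 to 133 under the median-ratio scaling, the level filter, the sum per gene and without genes that have coding transcripts, and unchanged at 105 and 141 without accessions at several loci. Under the median ratio the shares were 4.27% and 5.16%, against 6.86% and 9.29% of all transcripts. Shares over all transcripts were not computed for the sum per gene or without some genes or accessions. The lower count exceeded the higher under each of these, as it did over all transcripts wherever that was computed. Under the main rule 42.7% of the calls of members were higher, against 39.9% of the calls over all transcripts. TPM and the median ratio (0.953 over coding transcripts) moved no call of a named transcript to the other direction, though the median ratio ended the calls of Snhg20 and Snhg4. Summed per gene, the Ankrd10 transcript NR_030779 went from a log2 change of 3.11 to -0.19, Gm4890 (NR_045822) from -2.19 to -0.36 and Zfp672 (NR_046280) from -3.33 to -0.77, and these 3 calls were lost. The median of the snoRNA host list ranged from -0.55 to -0.74, and that of the Hox cluster list became -0.15 with a pseudocount of 0.1.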

Other observations

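Some changes in single transcripts cancelled within their gene. Of 230 genes with at least 2 tested members, 8 had members called in opposite directions, and the sum over members was under 2-fold for 7 of the 8. Gm1976 was at 0 and 7.10 FPKM in one transcript (NR_045963) and at 7.45 and 0.387 in the other (NR_045964), with a sum of 7.45 in the pre-pro-B library and 7.49 in the pro-B library. Ankrd10 had NR_030779 at 0.269 and 9.99 FPKM and NR_030781 at 7.81 and 0.0325, with a sum of 20.4 and 17.8. A930005H10Rik, Gm16973, Gm4890 and 9430091E24Rik were of the same kind, and Arhgap1 was the exception, with a sum of 19.7 and 6.32 FPKM. The Yars2 transcript NR_038046 was at 0.000103 and 7.91 FPKM, while the coding transcript of this mitochondrial tyrosyl-tRNA synthetase gene was at 7.49 and 0.000717.

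1300002E11Rik, an lncRNA with a pair of members, was higher in both, at 7.21 and 59.7 FPKM for NR_037958 and at 0.743 and 9.77 for NR_037957. Dubr, lower in the pro-B library and not named by the rules, was at 14.6 and 1.52 FPKM.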
